A study of Mus musculus with 6 samples.

Results

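Odorant and pheromone receptor genes were taken from the count tables of mouse sperm by name and by counts. They are the rows whose symbol starts with Olfr or Vmn and does not hold -ps, the mark of a pseudogene. Pseudogenes were left out by this mark in the name alone. Each row had 10 or more counts summed over the nuclei 1, nuclei 2 and whole sperm libraries. This rule chose 144 genes of the 1409 Olfr and Vmn rows, among 25610 rows of genes and assembled regions in all. The members were chosen by these summed counts, so their presence and abundance are given as a description. Of the 144 genes, 99 belong to Olfr, 14 to Vmn1r and 31 to Vmn2r.

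The series compared RNA of sperm nuclei, from 2 preparations, with RNA of whole sperm, from 1 preparation. All sperm came from adult C57BL/6 mice of the transgenic line HP3.1, stated to be 4 months old, and were collected from the cauda epididymis and the vas deferens. Neither the transgene's content nor the animals behind each preparation are stated in the labels. Nuclei had been freed by sonication and spun through sucrose and caesium chloride with Triton X-100, whereas whole sperm skipped those steps. Every extract was treated with DNase. The labels name 2 runs of each preparation and the tables hold 1 column, which was taken as both runs combined, so the comparison is 2 libraries against 1.

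Olfr genes encode odorant receptors, G protein-coupled receptors of the olfactory sensory neurons of the nose. Vmn1r and Vmn2r genes encode pheromone receptors of the vomeronasal organ, and Vmn2r proteins carry a large extracellular domain. A sensory neuron typically uses a single receptor gene out of the whole repertoire. Some odorant receptors have also been described in testis and sperm.

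The libraries held 5487306 counts (nuclei 1), 6648848 (nuclei 2) and 8316345 (whole sperm) over genes and regions, with most in whole sperm. Reads outside features are given here for whole sperm only, so sequencing depth was not compared. The sperm identity of the libraries was visible in 10 of 10 sperm markers, which summed to 4825 and 4364 CPM in nuclei against 2481 CPM in whole sperm (CPM, reads scaled to library size after normalisation). Of 13 epididymal and epithelial markers, 11 had counts, at 2738 and 2798 CPM in nuclei against 17061 CPM in whole sperm, while Lcn5 and Lcn8 were at 0. Of 9 listed leukocyte symbols 8 had a row, the other, Adgre1, being the same gene as Emr1. Leukocyte markers summed to 19.3 and 12.6 CPM in nuclei against 33.9 CPM in whole sperm. The part of these cells in the receptor counts was not tested. In such bulk samples, fewer cells of a type and less RNA per cell cannot be told apart.

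Receptor genes were seen in more rows of the nuclei libraries than of whole sperm. Over all 1409 rows, whatever their counts, 161 (11.4%) had a count in nuclei 1, 110 (7.81%) in nuclei 2 and only 55 (3.90%) in whole sperm. Other annotated genes had a count in 63.0% and 55.7% of rows in nuclei and in 66.9% in whole sperm, where the share was highest. No count at all was found for 1148 receptor rows, and 117 had 1 to 9 counts. With 2 libraries against 1, an exact permutation test over samples cannot give a one-sided p below 0.333, so none of these shares was tested.

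The 144 genes together took a small share of the counts. Their counts summed to 2984 and 3191 in the nuclei libraries and to 1205 in whole sperm. As a share of all counts this was 0.0544% in nuclei 1 (Clopper-Pearson 95% interval 0.0524 to 0.0564) and 0.0480% in nuclei 2 (0.0463 to 0.0497). In whole sperm it was 0.0145% (0.0137 to 0.0153). Both nuclei libraries lay above whole sperm. The genes were chosen by counts summed over these same libraries, and 110 of the 144 had no count in whole sperm. This order is therefore a description and no evidence of a difference. These intervals reflect counting error alone, as the reads carry no mark of PCR copies, and those of the 2 nuclei libraries do not overlap each other either. Without Olfr613 and Vmn1r58, the members with most counts, the summed level was 443 and 438 CPM in nuclei against 104 CPM in whole sperm.

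**Figure D1:**
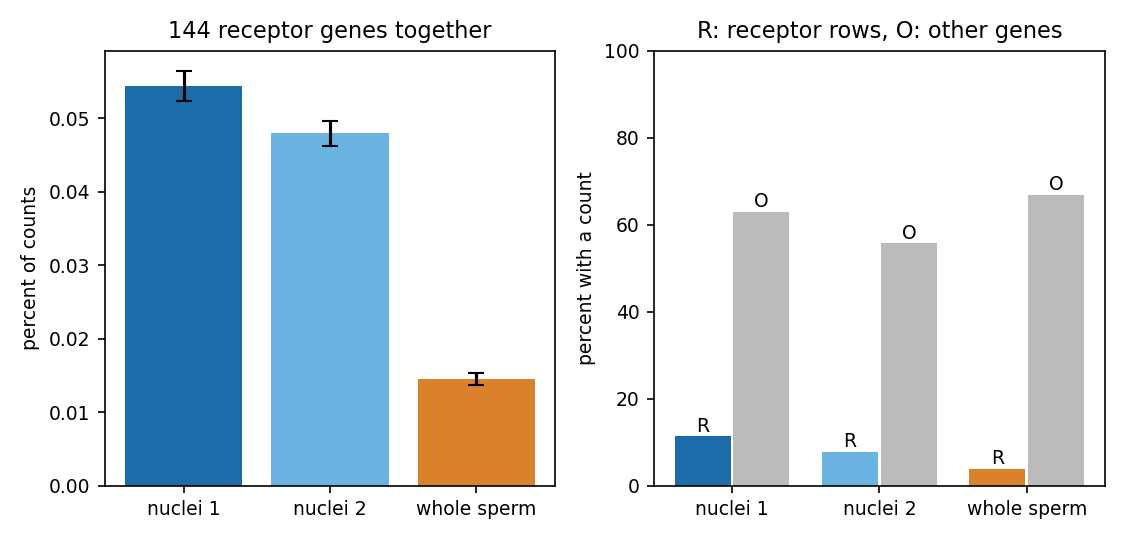
Left, percent of all gene and region counts taken by the 144 receptor genes in each library, with Clopper-Pearson 95% intervals. Right, percent of the 1409 receptor rows (R, coloured) and of the other annotated genes (O, grey) that had a count. The receptor share is 0.0544% and 0.0480% in nuclei and 0.0145% in whole sperm, while other genes were counted in 55.7% to 66.9% of rows in every library.

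Most members were counted in a single library. A count in nuclei 1 alone was found for 48 genes, in nuclei 2 alone for 44 and in whole sperm alone for 6, which makes 98 of 144 (68.1%). Both nuclei libraries and no whole-sperm count held for 18 genes, and all 3 libraries for 14. Nuclei 1 and whole sperm shared 6 genes, and nuclei 2 and whole sperm shared 8. In all, 86 members had a count in nuclei 1, 84 had 1 in nuclei 2 and 34 had 1 in whole sperm. The 32 members counted in both nuclei libraries were 37.2% of those in nuclei 1 and 38.1% of those in nuclei 2.

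**Figure D2:**
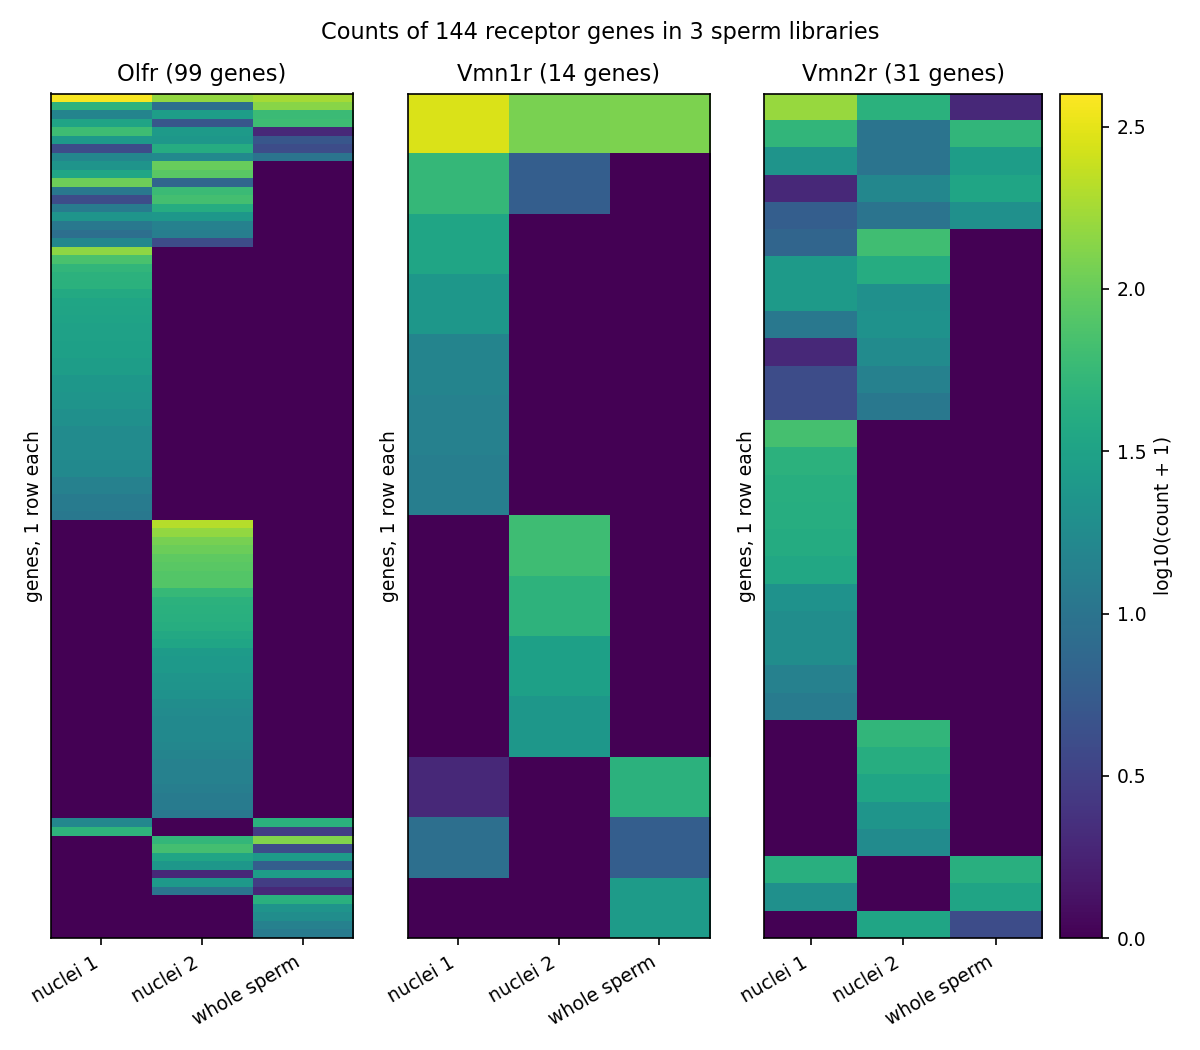
Heat map of log10(count + 1) for each of the 144 genes (rows) in nuclei 1, nuclei 2 and whole sperm (columns), split by family and ordered by which libraries had a count. The blocks with a count in 1 column only are the 48 genes of nuclei 1, the 44 of nuclei 2 and the 6 of whole sperm.

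This pattern was set beside other features in the same classes of summed counts. Among members with 10 to 19 counts, 86.4% of 44 genes were counted in 1 library, against 51.8% of 1020 other annotated genes. With 20 to 49 counts the shares were 76.3% of 59 members and 32.8% of 2125 other genes, and with 50 to 99 counts 37.0% of 27 members and 16.1% of 2292 other genes. With 100 counts or more, 5 of 14 members (35.7%) were in 1 library, against 124 of 9487 other genes (1.31%). That class has no upper limit and its members had 103 to 700 counts, so counts were not matched within it. In the assembled regions of the authors' list the shares were 83.3%, 84.4%, 69.6% and 23.0% in the same order. No count in whole sperm was found for 110 of 144 members (76.4%). In the 4 count classes, low to high, this share was 88.6%, 79.7%, 59.3% and 57.1% of members. Among other annotated genes it was 35.8%, 24.4%, 13.4% and 1.41%, and among regions 91.7%, 90.3%, 83.5% and 33.6%.

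**Figure D3:**
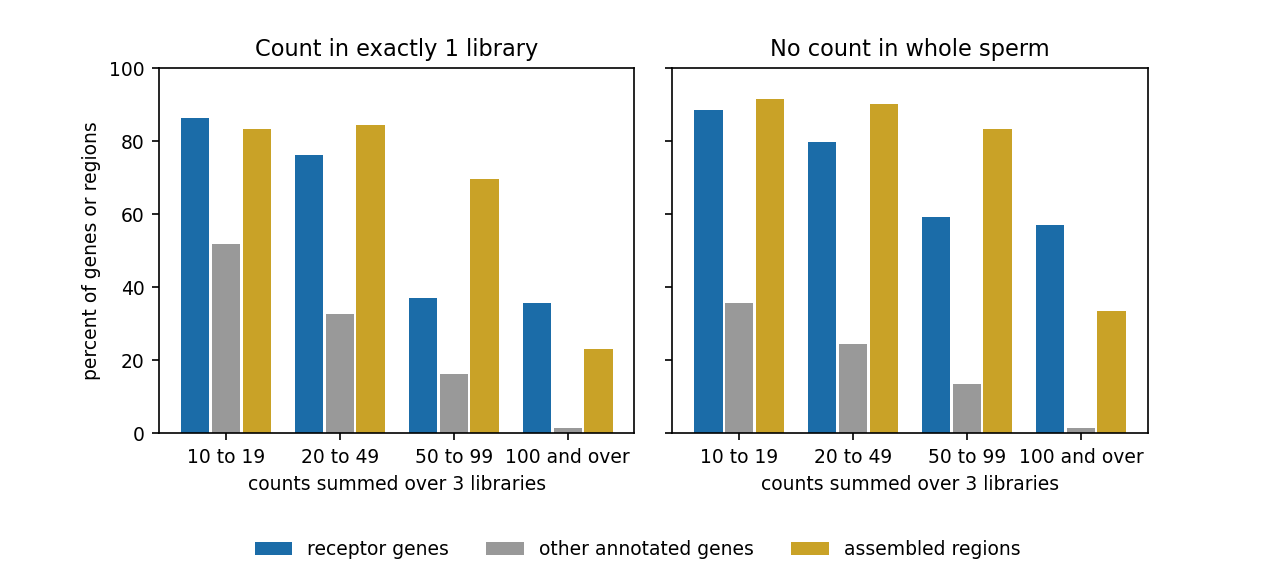
Percent of receptor genes, other annotated genes and assembled regions with a count in exactly 1 library (left) and with none in whole sperm (right), by counts summed over the 3 libraries. Receptor genes stand above other annotated genes in all 4 count classes on both sides, for example at 76.3% and 32.8% with 20 to 49 counts on the left. The highest class has no upper limit, so counts are not matched within it.

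No receptor gene passed the test between nuclei and whole sperm. The edgeR quasi-likelihood test covered 121 of the 144 members, the other 23 having too few counts, and called none of them higher and none lower (0 of 121) in nuclei, at a Benjamini-Hochberg adjusted p under 0.05. Of all 16720 features tested, edgeR called 0.0658% higher and 0.0957% lower. Without adjustment, at p under 0.05, edgeR had 1 member, Olfr1301, against 5.84% of all features. DESeq2 called 0 of the 9 members that it gave an adjusted p, beside 1.38% of all such features called higher and 0.382% lower. Without adjustment it had 9 of 144 members higher and 0 lower, against 7.89% and 1.98% of all features. On log2(RPKM + 0.1), limma called 0 members and 0% of all features, and without adjustment it had 4 of 121 members higher and 6 lower, against 1.54% and 8.25% of all features. The lowest adjusted p of a member was 0.814. A log2 fold change above 0, nuclei over whole sperm, was fitted for 103 members and one below 0 for 18, against 54.4% of all features above 0.

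The median fitted log2 fold change of the tested members was 6.79, against 0.27 over all features. Of these 121 genes, 91 had no count in whole sperm and 4 none in nuclei, so their fitted folds depend on the prior count. With those genes set to their bound against a floor of 3 counts per library, the median was 2.82. As a log2 difference of CPM with a prior count of 2, which pulls low genes towards 0, it was 1.35 with nuclei 2 as the single nuclei library and 1.24 with nuclei 1. These medians describe genes chosen for their counts, and the filter kept many of them through the nuclei libraries alone.

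Olfr613 and Vmn1r58 were the only members with more than 100 counts in every library. Olfr613, an odorant receptor gene (mm10, chr7:103548074-103555506, plus strand), had 373 and 149 counts in nuclei against 178 in whole sperm, or 71.1 and 22.3 CPM against 20.5 CPM. Vmn1r58, a type 1 vomeronasal receptor gene (chr7:5401681-5413396, minus strand), had 287 and 119 counts in nuclei against 123 in whole sperm, or 54.7 and 17.8 CPM against 14.2 CPM. For both genes nuclei 1 was high, while nuclei 2 lay only a little above whole sperm. The log2 fold changes were 1.18 ± 1.21 (SE) for Olfr613 and 1.35 ± 1.44 for Vmn1r58, with edgeR adjusted p = 0.909 for each. With spike-in scaling they turned to -0.24 and -0.07, a setting that moved the median of all features to -1.16.

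Both genes have long annotated transcripts of which little is coding. The Olfr613 transcript has 5139 bases, of which 951 (18.5%) are coding, and that of Vmn1r58 has 10140 bases, of which 930 (9.17%) are coding. Per length, Olfr613 stood at 4.20 and 1.99 RPKM (reads per kilobase of transcript, scaled to depth) in nuclei and 1.44 RPKM in whole sperm. Vmn1r58 stood at 5.19 and 2.07 RPKM in nuclei and 2.00 RPKM in whole sperm. Of the 50-base stretches in the transcripts, 4.70% for Olfr613 and 13.8% for Vmn1r58 also occur in a transcript of another gene.

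The bases just before the annotated RefSeq start of Olfr613, the receptor gene with most counts, hold sequence that recurs near the starts of other genes. These bases lie inside the longer GENCODE span given above (chr7:103548074-103555506) and are not upstream of that gene model. The 250 bases (GRCm38.p6, chr7:103550118-103550367, plus strand) are given with capitals for runs of at least 30 bases that also occur, on either strand, in the start-site windows of 10 or more other genes.
Olfr613: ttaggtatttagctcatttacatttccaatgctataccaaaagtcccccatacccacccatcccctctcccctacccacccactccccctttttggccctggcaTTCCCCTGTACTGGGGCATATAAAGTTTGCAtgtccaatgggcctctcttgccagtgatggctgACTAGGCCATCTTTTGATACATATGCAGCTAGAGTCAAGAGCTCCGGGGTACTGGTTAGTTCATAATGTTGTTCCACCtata
The capitals cover 109 bases, and 30 other genes share at least 1 such run. Among 127 members with a window, 4 (3.15%) held a run of this kind, against 53 of 1078 other receptor genes (4.92%). The other 3 members were Vmn2r29, Vmn2r31 and Vmn2r42. The share was no higher in members than in other receptor genes, and nothing about the start of the counted RNA follows from a match.

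Of the 12 members with most counts, 7 had none in whole sperm, and 4 of these were counted in 1 nuclei library only. Olfr1301 (chr2:111751006-111758852) had 0 and 203 counts in nuclei against 0 in whole sperm. Olfr1242 had 0 and 152 counts in nuclei against 0 in whole sperm, and Olfr147 had 0 and 116 against 0. Olfr1386 had 144 and 0 counts in nuclei against 0 in whole sperm. In each of these 4 odorant receptor genes 1 nuclei preparation held every read and the other had none. Against a floor of 3 counts per library, the nuclei mean was at least 43.9-fold higher for Olfr1301, 39.7-fold for Olfr1386, 32.9-fold for Olfr1242 and 25.1-fold for Olfr147. These bounds, and those below, allow for counting error of the 0 alone. They take the nuclei mean as exact and leave out the spread between preparations. The edgeR adjusted p was 0.814 for Olfr1301, 0.899 for Olfr1386 and 0.909 for the other 2.

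Per length, Olfr1301 had the highest value of any member, 13.5 RPKM in nuclei 2 and 0 in the other libraries, and no 50-base stretch of its 939-base transcript occurs in another gene. Olfr1242 followed at 9.19 RPKM in nuclei 2. Genes with 50 or more counts that were all in 1 library numbered 15, with 4 of them in nuclei 1, 11 in nuclei 2 and none (0) in whole sperm. Besides the 4 above, those of nuclei 2 were Olfr851 (103 counts), Olfr470 (90), Olfr921 (85), Olfr1132 (80), Olfr1330 (80), Vmn1r223 (61), Olfr1100 (54) and Vmn2r14 (51). Those of nuclei 1 were Olfr1310 (71 counts), Vmn2r110 (67) and Olfr786 (51). The highest whole-sperm gene without a nuclei count was Olfr194, at 44 counts. The same split over all features is not given here, and nuclei had 2 libraries against 1. These numbers therefore describe the members alone.

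A few members were seen in both nuclei preparations and not, or hardly, in whole sperm. Vmn2r60, a type 2 vomeronasal receptor gene, had 159 and 45 counts in nuclei against 1 in whole sperm. The pooled nuclei count was 148 times the whole-sperm count per library size, with a counting interval of 26.3 to 5885, and the log2 fold change was 7.12 ± 3.66 (edgeR adjusted p = 0.859). Olfr520 had 34 and 85 counts in nuclei against 0 in whole sperm, Olfr153 had 21 and 98 against 0, and Olfr1413 had 105 and 6 against 0. Nuclei 1 and nuclei 2 differed widely within each of these genes, but both lay above whole sperm. The nuclei mean was at least 30.2-fold higher for Olfr1413, 27.8-fold for Olfr520 and 27.0-fold for Olfr153, by the same floor, with edgeR adjusted p = 0.909 for all 3. Vmn1r74 (53 and 5 counts in nuclei, 0 in whole sperm), Vmn2r42 (25 and 40, against 0) and Olfr1079 (10 and 58, against 0) complete the 6 largest folds with both nuclei libraries on 1 side. Vmn2r60, Olfr1413 and Vmn1r74 overlap another annotated gene on the opposite strand, and no source says whether counting used strand, so reads of the partners cannot be told apart.

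Other members had most of their reads in whole sperm. Olfr212 had 47 and 8 counts in nuclei against 137 in whole sperm, and Olfr46 had 0 and 52 against 128. Both nuclei libraries lay below whole sperm in CPM, at 8.96 and 1.20 against 15.8 CPM for Olfr212 and at 0 and 7.79 against 14.8 CPM for Olfr46. The log2 fold changes were -1.64 ± 3.05 and -1.91 ± 3.37, with edgeR adjusted p = 0.984 and 0.977. Olfr1507, known as MOR28 and widely used to study how a neuron settles on a receptor, had 32 and 4 counts in nuclei against 61 in whole sperm. Olfr112 had 14 and 27 counts in nuclei against 58 in whole sperm, Olfr761 had 15 and 0 against 45, and Vmn2r7 had 19 and 0 against 32. None of these 6 passed the test, and the fitted log2 fold changes of the last 4 were between -1.85 and -0.99.

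Over all members, both nuclei libraries lay above whole sperm in CPM for 25 genes and below it for 16. The matching shares over all features are not given here, so these numbers describe the members alone. The 6 genes counted in whole sperm only had few reads, from 44 for Olfr194 and 26 for Vmn1r181 to 21 for Olfr1008, 18 for Olfr393, 13 for Olfr76 and 11 for Olfr31. Vmn1r21, with 1 and 0 counts in nuclei against 46 in whole sperm, was close to this pattern. These genes share the direction of the epididymal and epithelial markers, whose levels are given above, and their part in the values was not tested.

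**Figure D4:**
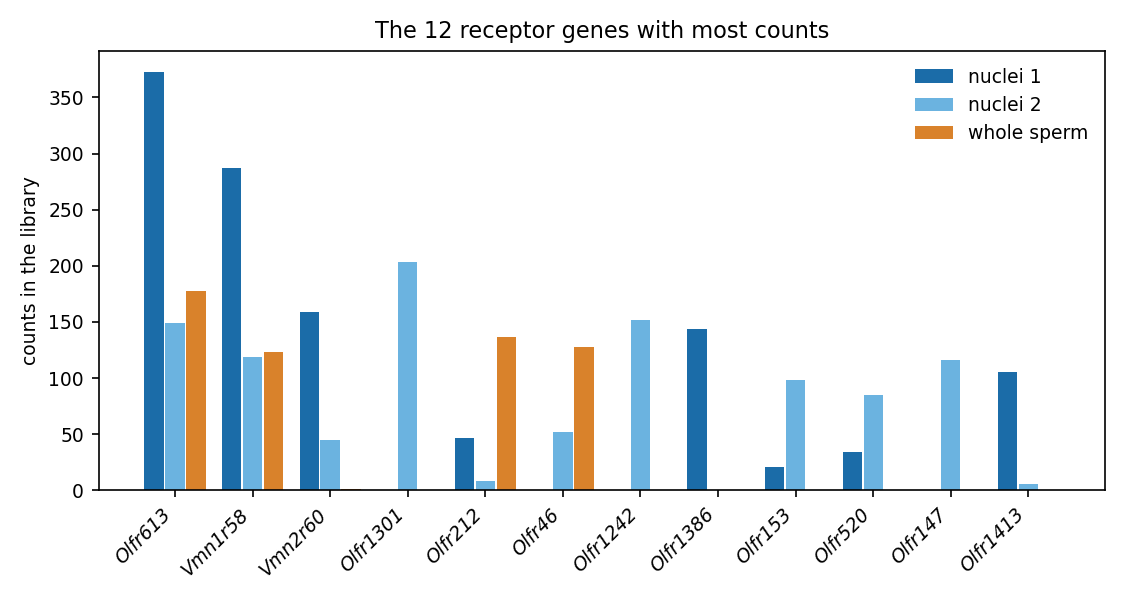
Counts of the 12 receptor genes with most counts, as bars for nuclei 1, nuclei 2 and whole sperm (vertical axis, reads per library). Olfr613 and Vmn1r58 have bars in every library, Olfr1301, Olfr1242, Olfr147 and Olfr1386 in 1 nuclei library only, and Olfr212 and Olfr46 are tallest in whole sperm.

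The 14 members seen in every library were not all alike. For 7 of them the nuclei mean lay above whole sperm in CPM. Besides those described, Vmn2r62 had 51 and 9 counts in nuclei against 51 in whole sperm, Vmn2r55 had 21 and 9 against 27, and Olfr128 had 15 and 16 against 9. Olfr731 had 24 and 23 counts in nuclei against 4 in whole sperm. Olfr1033 had 61 and 25 counts in nuclei against 1 in whole sperm.

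The families differed in how many genes met the count rule. Members were 31 of 122 Vmn2r rows (25.4%), 99 of 1095 Olfr rows (9.04%) and 14 of 192 Vmn1r rows (7.29%). Vmn2r transcripts are also longer, with a median of 4516 bases in members and 4056 bases in the other rows, against 957 bases in Olfr members and in the other Olfr rows alike. Among Vmn1r the medians were 1016 bases in members and 933 bases in the other rows. Transcripts over 2000 bases made up 11.1% of Olfr members and 6.97% of the other Olfr rows. The median of each gene's highest RPKM was 0.676 in Vmn2r members, 1.36 in Olfr members and 1.47 in Vmn1r members, but a fixed count admits a longer transcript at a lower RPKM, so these medians follow in part from the rule.

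**Figure D5:**
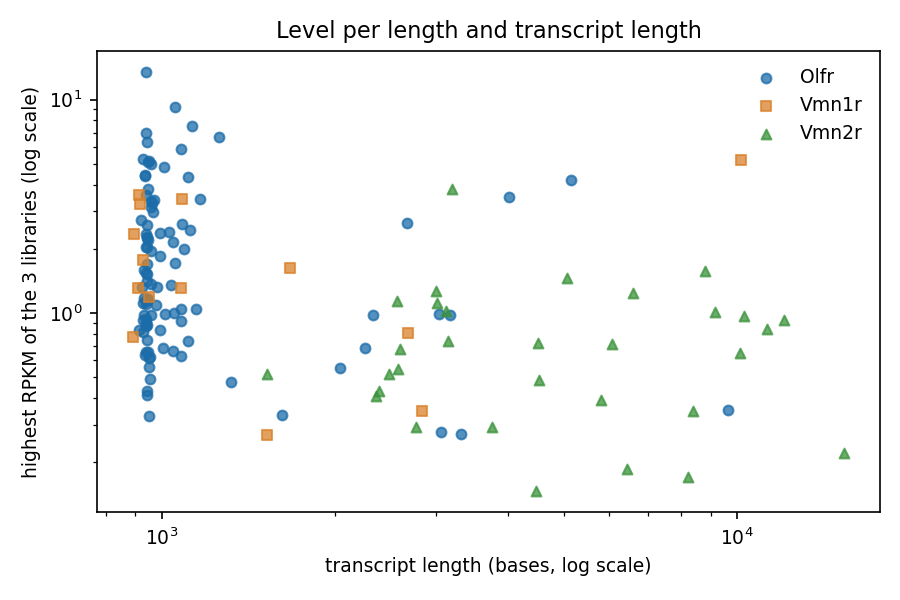
Highest RPKM over the 3 libraries against transcript length for the 144 genes, both on log scales, with the families as separate symbols. Vmn2r genes lie to the right with a median of 0.676 RPKM, and most Olfr genes stand near 957 bases, up to 13.5 RPKM.

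The members were spread over the receptor gene clusters of the genome. In GENCODE vM21 (mm10), 1398 receptor genes fell into 67 clusters separated by gaps of more than 1 Mb, and 37 clusters, on 15 chromosomes, held a member. Chromosome 7 held 34 members of 374 receptor genes (9.09%), chromosome 2 held 31 of 280 (11.1%) and chromosome 17 held 20 of 94 (21.3%). Of the members, 22.9% had another member as a direct neighbour, against 17.6% of the other receptor genes. The largest chromosome 7 cluster (chr7:102476579-105369355) held 3 members of 124 genes (2.42%), Olfr613 among them.

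In a small Vmn2r cluster, picked after its values were seen, most genes met the count rule. At chr7:41395945-42933822, 6 of 7 receptor genes were members. Vmn2r60 and Vmn2r62 are described above. Vmn2r57 had 3 and 10 counts in nuclei against 0 in whole sperm, Vmn2r59 had 0 and 33 against 0, Vmn2r61 had 10 and 20 against 0, and Vmn2r63 had 42 and 0 against 0. Vmn2r62 was the only one of the 6 with more than 1 count in whole sperm. The counts of Vmn2r62 are uncertain, because 79.3% of its 50-base stretches occur in other transcripts. For Vmn2r57 this share was 41.6%. Vmn2r57 and Vmn2r59 each overlap another annotated gene on the same strand, so their counts are uncertain too.

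The cluster at chr17:37083871-38336643 held 11 members of 46 genes, among them 4 close copies whose reads can be hard to assign. Olfr126 had 48 and 0 counts in nuclei against 2 in whole sperm, and Olfr127 had 29 and 0 against 0. Olfr761 and Olfr128 are given above. A run of 100 coding bases is identical in all 4 genes and is shown because a read inside it fits each of them. It spans bases 364 to 463 of the Olfr126 transcript, 390 to 489 of Olfr127, 426 to 525 of Olfr128 and 421 to 520 of Olfr761.
Olfr126, Olfr127, Olfr128 and Olfr761: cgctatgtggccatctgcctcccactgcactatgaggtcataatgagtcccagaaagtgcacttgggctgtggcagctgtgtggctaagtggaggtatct
The next 60 coding bases of each gene follow, with capitals where a base differs from Olfr128.
Olfr126: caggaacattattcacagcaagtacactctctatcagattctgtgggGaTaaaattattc
Olfr127: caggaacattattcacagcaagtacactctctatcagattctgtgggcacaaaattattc
Olfr128: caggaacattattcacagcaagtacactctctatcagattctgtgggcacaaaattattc
Olfr761: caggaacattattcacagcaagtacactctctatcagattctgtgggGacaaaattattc
Olfr126 differs from Olfr128 at 2 of these bases and Olfr761 at 1, while Olfr127 matches it throughout. Over whole transcripts, 35.9% of the 50-base stretches of Olfr126, 40.1% of Olfr127, 43.5% of Olfr128 and 25.3% of Olfr761 occur in another gene.

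Such sharing was moderate for most members. The median share of 50-base stretches found in another gene's transcript was 10.8%. It was 0 for 26 members and over 50% for 8, with 90.7% for Vmn2r42 and 100% for Vmn2r29. Among the 12 members with most counts the highest shares were 32.8% for Olfr1386 and 29.7% for Olfr46. Another annotated gene overlapped 18 members, on the opposite strand in 12.

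The 7 listed receptors described outside the nose had no reads. Olfr16, known as MOR23 and described in mouse sperm, had 0 counts in both nuclei libraries and in whole sperm. The same held for Olfr78 and Olfr1393, described in the kidney, Olfr558, Olfr544, Olfr2 and Olfr90. A count of 0 allows up to 3 counts, or 0.572 and 0.449 CPM in nuclei against 0.346 CPM in whole sperm, so lower levels were not detectable at this depth.

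Genes listed for odorant receptor signalling, receptor transport and olfactory neuron identity were only partly present. Of 21 symbols listed for olfactory transduction, 20 had a row and 14 a count. The symbol without a row, Grk3, names the same gene as Adrbk2, which had a row. The 14 were all tested, with 9 log2 fold changes above 0 and 5 below, a median of 0.46, and none called by edgeR. Ano2, a calcium-activated chloride channel gene, had 1641 and 1619 counts in nuclei against 1497 in whole sperm. The phosphodiesterase gene Pde1c had 392 and 831 counts in nuclei against 625 in whole sperm, Pde4a had 64 and 358 against 167, and Arrb2, beta-arrestin 2, had 316 and 387 against 684. The other genes of this list that are named here were picked after their values were seen. Gnal, the olfactory G protein alpha subunit, had 108 and 194 counts in nuclei against 156 in whole sperm, and the adenylyl cyclase gene Adcy3 had 25 and 13 against 7. Of the olfactory ion channel, the subunit genes Cngb1 (46 and 140 counts in nuclei, 20 in whole sperm) and Cnga4 (23 and 55, against 13) were counted. The third subunit gene, Cnga2, was at 0 in every library, as were Rtp1 and Rtp2, which help receptors reach the cell surface, and Reep1, Gng13 and Stoml3. Omp, the marker of mature olfactory neurons, had 4 and 0 counts in nuclei against 63 in whole sperm.

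The vomeronasal and taste pathway gave a similar mix. Of 10 listed genes, 8 had a count and 7 were tested, with 3 above 0 and 4 below, a median of -1.79, and none called by edgeR. Itpr3, an inositol trisphosphate receptor gene, had 4034 and 10862 counts in nuclei against 3207 in whole sperm. Plcb2, a phospholipase gene of taste cells, had 216 and 334 counts in nuclei against 133 in whole sperm. The chloride channel gene Ano1 had 245 and 116 counts in nuclei against 961 in whole sperm, and the G protein gene Gnai2 had 60 and 52 against 513. Trpc2, the vomeronasal ion channel gene, named after its values were seen, had 1 count in each nuclei library and 32 in whole sperm.

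Other chemosensory receptors with a count were also mostly seen in 1 library. Of 57 rows of the taste, trace amine and formyl peptide receptor families, 11 had a count, all of them taste receptors, and 8 of the 11 were counted in 1 library. They summed to 118 and 184 counts in nuclei against 22 in whole sperm. Tas1r1, a subunit of the umami receptor, had 71 and 24 counts in nuclei against 0 in whole sperm. The bitter receptor genes Tas2r125 and Tas2r113 had 77 and 54 counts in nuclei 2 only, and Tas2r118 had 27 in nuclei 1 only. None of the 6 tested was called by edgeR, with 5 log2 fold changes above 0 and 1 below.

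Assembled regions over receptor genes were counted in nuclei alone. Of 2381 regions in the authors' list, 13 overlapped an Olfr or Vmn gene, 5 of them an exon and 8 only an intron, and 2 of these genes were pseudogenes. Nuclei 1 had a count in 12 regions, nuclei 2 in 4 and whole sperm in 0. Of all regions, 59.2% had no count in whole sperm, and this share fell with the summed counts. It was 90.3% of regions with 20 to 49 counts, 83.5% with 50 to 99 and 33.6% with 100 or more. The 13 regions had 28 to 700 counts. None of the 13 lay over a member. The region over Olfr862 (chr9:19884500-19885009) had 205 and 495 counts in nuclei against 0 in whole sperm (edgeR adjusted p = 0.00172), at least 164-fold higher by the floor of 3 counts per library, and it was the only one of the 13 called. The call was lost in 3 of 9 alternatives. These were edgeR with a mean of at least 10 CPM (log2 11.55, adjusted p = 0.491), limma on log2(RPKM + 0.1) (8.59, adjusted p = 0.507) and limma on log2(RPKM + 1) (5.31, adjusted p = 0.387). Over the other 6 the adjusted p was 0.000886 to 0.0235. Of its 510 bases, 437 lie in an untranslated exon part of Olfr862, 73 lie outside its exons and 0 are coding. The Olfr862 row itself had 3 and 0 counts in nuclei against 0 in whole sperm.

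At the lower limit of the rule, Olfr122 (0 and 10 counts in nuclei, 0 in whole sperm), Olfr914 (10 and 0, against 0) and Olfr1355 (0 and 9, against 1) were just inside. Just outside, at 9 summed counts, were Olfr1281, Olfr1294, Olfr380, Olfr791, Olfr968, Vmn2r113 and Vmn2r97. Of these, Olfr1281 had 5 and 0 counts in nuclei against 4 in whole sperm, and the others had none in whole sperm.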

How the data were processed

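RNA was sequenced from 2 preparations of sperm nuclei and 1 of whole sperm. Counts were deposited by the authors as raw reads for each gene or assembled region, not normalized. The deposited RPKM values are the authors' own. The adjusted whole-sperm column was handled as a score, since in each of its 25610 rows the authors' value was, within 0.5, what is left of the whole-sperm count after subtracting the mean nuclei count, or 0. The submitters' processing notes name build mm10 and the tools TopHat2 2.0.12, HTSeq, DESeq2, Cufflinks 2.1.1, bedtools, CASAVA 1.8.2 and SAMtools 0.1.19, in no stated role. Whether counting used strand is not given in the sources used here. Coordinates of regions were read from the list the authors deposited.

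All features that passed filterByExpr were tested with edgeR 4.0.16 in R 4.3.3 (quasi-likelihood, TMM factors, Benjamini-Hochberg adjustment). Since the prior degrees of freedom came out infinite, standard errors and p-values rest on a spread pooled over genes between 2 nuclei preparations, which may be technical (common coefficient of variation 1.30). Each standard error is the size of the log2 fold change divided by the square root of the F statistic of the test. As the fold depends on a prior count, it is approximate for genes with few counts. DESeq2 1.42.0 and limma 3.58.1 on log2(RPKM + 0.1) were alternatives. Spike-ins, and 5896320 reads outside features (34.4% of the whole-sperm file) and 336963 ambiguous reads, stayed out of totals. Positions, transcripts and overlaps come from GENCODE vM21, and start-site windows from RefSeq (GRCm38.p6). A receptor's 50-base stretches were searched on both strands of all GENCODE transcripts.

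Named genes are the 12 members with most counts, the 6 largest and 6 smallest folds among members with 50 or more counts and both nuclei libraries on 1 side of whole sperm, those with 50 or more counts in 1 library only, 7 receptors described outside the nose, and up to 4 genes of each other list by mean CPM. Others, such as those of the chromosome 7 and 17 clusters, those in every library and those in whole sperm only, were named after their values were seen. The members and lists were chosen with earlier results of these data known.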

Additional observations from a re-analysis of the deposited data

Results flagged for a closer look

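Counts were also present in receptor rows outside the comparisons. The 28 pseudogene rows of Olfr and Vmn summed to 911 counts (nuclei 1), 764 (nuclei 2) and 598 (whole sperm), or 0.0166% and 0.0115% of all counts in nuclei against 0.00719% in whole sperm. Of these rows 9 had a count. Vmn2r-ps54 had 272 and 548 counts in nuclei against 442 in whole sperm, more in sum than any of the 144 receptor genes, and Olfr856-ps1 had 451 and 82 against 50. Outlying samples were not searched for, since neither group holds 4 of them.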

How the results depend on the processing

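The number of members called was 0 higher and 0 lower under every alternative run, namely library size alone, DESeq2 size factors, scaling to spike-ins, annotated genes only, a mean of at least 10 CPM, no filter, the 10 most abundant features left out, the DESeq2 Wald test and limma on log2(RPKM + 0.1). The median log2 fold change of tested members, 6.79, was 6.30 with spike-in scaling, 6.52 with no filter, 4.22 with a mean of at least 10 CPM (4 members left), 7.15 with at least 20 summed counts, 1.83 on log2(RPKM + 0.1), 0.56 on log2(RPKM + 1) and 2.82 with genes at 0 set to their bound, an alternative chosen after seeing the data. With 1 nuclei library left out it was 1.24 to 1.35. The share of counts taken by members, 0.0512% in nuclei on average and 0.0145% in whole sperm, was 0.0954% and 0.0311% without the 10 most abundant features, 0.0446% and 0.0127% for members that overlap no other gene, and 0.0432% and 0.0109% without Olfr613 and Vmn1r58, also chosen after seeing the data. From 1 nuclei library it was 0.0480 to 0.0544%. Of 30 named members, 21 had no count in 1 group, which fixes their direction. For the other 9, with counts in both groups, 2 of 102 alternative values reversed, Olfr613 (-0.24) and Vmn1r58 (-0.07) with spike-in scaling. None was called. The cause of these moves was not tested. No paired analysis was possible because whole sperm had 1 preparation. With 1 whole-sperm library its own spread is unknown, and a count of 0 allows up to 3 counts.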

Other observations

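In the authors' deposited adjusted column, from which the mean nuclei count is subtracted, the members kept 662 of 1205 whole-sperm counts (54.9%), against 40.8% over all rows. A value above 0 was left for 21 members, and 13 members with a whole-sperm count were set to 0, Olfr613 and Vmn1r58 among them. The values left were 110 for Olfr212, 102 for Olfr46, 44 for Olfr194 and 43 for Olfr1507. These values hold the nuclei counts and were not compared with them.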
